A study of Mus musculus with 15 samples.

Results

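The carbonic anhydrase genes followed here are Car1, Car2, Car3, Car4, Car5a, Car7, Car8, Car9, Car12 and Car14. They were found by their gene names in a table of RNA-Seq counts, and all 10 were present, each at 1 locus, among 23589 named loci. The table covers 15 libraries from male C57BL/6 mice: liver, epididymal white fat, colon (intestinal mucosa), hypothalamus and hippocampus, each from 3 diet groups. The AL mice were fed ad libitum and were 5 months old. The DR mice were restricted by 40% relative to AL intake from 4 months of age until they, too, were 5 months old, which is 1 month. The DR-AL mice had the same month of restriction and then 2 months of ad libitum feeding, and were 7 months old, so that in any comparison with this group age and diet history cannot be told apart. Each library holds RNA pooled from 5 mice, with 1 library for each tissue and diet. The 5 tissues of a diet group came from the same mice.

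Carbonic anhydrases are zinc enzymes that interconvert carbon dioxide and water with bicarbonate and a proton. The family divides by where the protein sits. Car1, Car2, Car3 and Car7 are cytosolic, Car5a is mitochondrial, Car4 is tethered to the outer membrane by a lipid anchor, and Car9, Car12 and Car14 span the membrane with the catalytic domain outside the cell. Car8 lacks the zinc-binding residues needed for catalysis and is known for binding an inositol trisphosphate receptor. In colon the family serves electroneutral salt absorption and bicarbonate secretion, in liver the mitochondrial form supplies bicarbonate for urea and glucose synthesis, in fat Car3 is among the most abundant proteins, and in brain Car2 is a protein of oligodendrocytes.

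Levels are given as CPM, counts scaled to a common total of the counts on named loci, and levels of different genes are compared only by FPKM, which also divides by transcript length. The deposited FPKM also scales the libraries differently from CPM. In DR against AL fat the median log2 fold change over all genes was 0.23 by CPM and -0.38 by FPKM (pseudocount 0.1). A difference between the units is therefore not one of transcript length alone. The libraries held 21767088 to 40500130 counts on named loci, with a median of 26554699, so that a floor of 3 counts corresponded to 0.0741 to 0.138 CPM. Marker genes of the labelled tissues were present where they belonged: 12 hepatocyte markers summed to 59196 to 66742 CPM in liver, 10 adipocyte markers to 28376 to 41657 CPM in fat, and 10 colonocyte markers to 23786 to 24604 CPM in colon. The fat libraries stood apart from each other in markers of other cell types. Relative to AL liver, the median over 11 hepatocyte markers was 12.4% in AL fat, 0.121% in DR fat and 0.0293% in DR-AL fat. Testis germ cell markers summed to 4.77, 583 and 2818 CPM in AL, DR and DR-AL fat, and epididymis markers to 1046, 3755 and 6337 CPM. These values are given again beside the results they move with.

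Of the family, Car1, Car2 and Car3 lie together on chromosome 3 with Car13, within 259 kb (GRCm38, 14641727 to 14900770; GENCODE M21). Car4 is on chromosome 11 (84957786 to 84966044, plus strand) and Car5a on chromosome 8 (121916126 to 121944904, minus strand). The study asked whether methylation of CG sites in promoters could accompany lasting diet effects. The 250 bases upstream of the start of Car4, the membrane form highest in colon, and of Car5a, the mitochondrial form highest in liver, are shown because they differ in such sites. They are RefSeq sequences of GRCm38.p6, 5′ to 3′ on the strand of the gene, with each CG in capitals.
Car4, chr11:84957504-84957753: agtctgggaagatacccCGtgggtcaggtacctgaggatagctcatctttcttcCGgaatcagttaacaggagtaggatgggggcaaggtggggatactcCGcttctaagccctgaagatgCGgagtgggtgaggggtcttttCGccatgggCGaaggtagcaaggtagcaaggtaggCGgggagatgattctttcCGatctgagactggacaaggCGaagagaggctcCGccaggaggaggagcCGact
Car5a, chr8:121944913-121945162: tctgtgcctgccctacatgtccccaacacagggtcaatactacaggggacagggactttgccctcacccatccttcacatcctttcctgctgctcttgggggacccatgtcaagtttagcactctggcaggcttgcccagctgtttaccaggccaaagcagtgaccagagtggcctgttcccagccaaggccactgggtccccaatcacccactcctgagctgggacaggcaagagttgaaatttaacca
The Car4 stretch holds 11 CG sites and the Car5a stretch 0. Over 32851 RefSeq promoter windows of 300 bases, which add the first 50 bases of the gene, the median number was 7, with quartiles of 3 and 20, against 15 for Car4 and 0 for Car5a. Windows were at hand for 6 of the 10 members, and the others held 13 CG sites for Car14, 9 for Car12, 5 for Car9 and 21 to 35 at the 3 starts of Car7. No methylation was measured at these genes in the data used here.

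Car3 led in liver and fat, Car1 in colon and Car2 in both brain regions. By FPKM, Car3 made up 82.6 to 93.3% of the summed level of the 10 members in liver and 97.3 to 99.4% in fat. Car1 led in colon with 53.9 to 68.3%, followed by Car4 with 20.4 to 30.02% and Car2 with 10.2 to 15.8%. Car2 led in both brain regions, with 72.4 to 77.5% in hypothalamus and 66.0 to 68.0% in hippocampus. The leader was the same gene in all 3 libraries of every tissue. Together the 10 members took from 0.0164% of all counts in AL hypothalamus to 2.32% in AL fat.

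**Figure D1:**
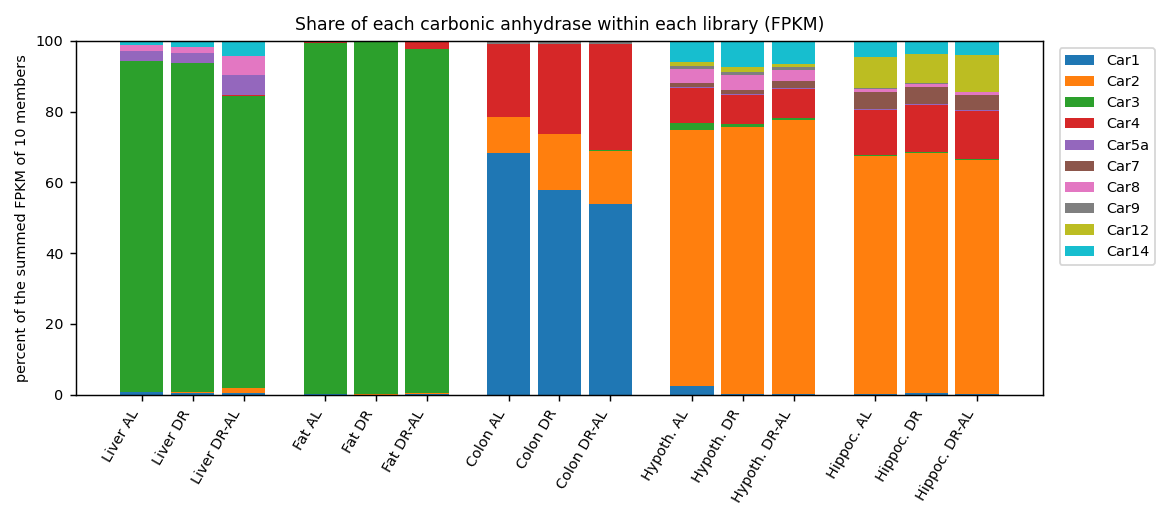
Stacked bars give the share of each carbonic anhydrase in the summed FPKM of the 10 members (y axis, percent), with 1 bar for each of 15 libraries. Car3 fills 82.6 to 99.4% of the liver and fat bars, Car1 53.9 to 68.3% of the colon bars and Car2 66.0 to 77.5% of the brain bars.

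Tissue differences were tested with the 3 diets of a tissue as its replicates. A term for diet takes up the diet differences that the tissues share. The spread behind the tests thus holds diet differences particular to a tissue, and library differences. In edgeR's quasi-likelihood test with terms for tissue and diet, 36 of the 50 pairs of a member and a tissue differed from the mean of the other 4 tissues (Benjamini-Hochberg adjusted p, threshold 0.05), of which 16 were higher and 20 lower. Such differences were common among all 17476 genes tested: 80.8% differed in liver (16.8% higher, 64.0% lower), 67.1% in fat (54.0% higher, 13.1% lower), 71.2% in colon (30.3% higher, 40.9% lower), 72.4% in hypothalamus (52.6% higher, 19.8% lower) and 71.6% in hippocampus (42.4% higher, 29.2% lower). The members' count of 36 is close to that background and is no result about the family. What sets the members apart from each other is the tissue and the size. Between neighbours in each member's order of tissues, 24 of 40 pairs differed, where 32.3% of all genes differed between hypothalamus and hippocampus and 82.5% between liver and hypothalamus, the lowest and highest of the tissue pairs. Those shares are for fixed pairs of tissues, while neighbours were set by the mean CPM of the same libraries. The count of 24 therefore has no like share beside it and is no result about the family. In bulk tissue, fewer cells of a type and less RNA per cell cannot be told apart.

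**Figure D2:**
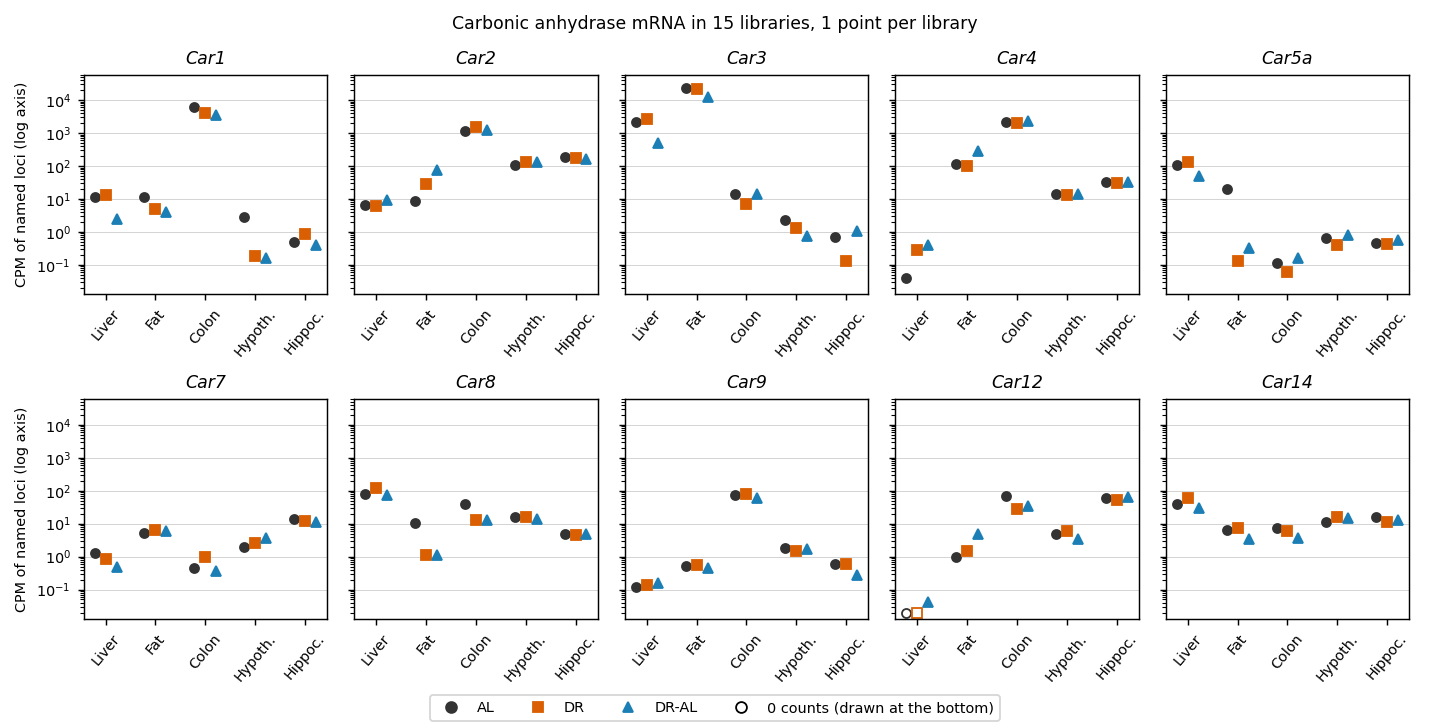
Each panel gives 1 gene, with its CPM in each library on a log axis (y) for the 5 tissues (x) and the 3 diets (symbols); open symbols at the bottom are libraries with 0 counts. Car1, Car4 and Car9 stand highest in the 3 colon libraries, Car3 in the 3 fat libraries, and Car5a and Car8 in the 3 liver libraries.

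Among the cytosolic enzymes, Car1 was almost restricted to colon. The AL, DR and DR-AL colon libraries held 6159.8, 4203 and 3535 CPM, while every library of the other tissues lay between 0.160 and 13.5 CPM. The colon mean of 4632 ± 1364 CPM (SD, n = 3) lay 9.18 ± 0.94 (SE) log2 units above liver, the next tissue (edgeR adjusted p = 6.62e-06). Liver and fat, next to each other in the order, were not separated (edgeR adjusted p = 0.624), nor were hypothalamus and hippocampus (edgeR adjusted p = 0.802).

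Car2, the fast and widely expressed cytosolic enzyme, was highest in colon at 1324 ± 162 CPM (SD, n = 3). Hippocampus followed at 177 ± 10.98 and hypothalamus at 123 ± 13.1 CPM. The libraries of these regions did not overlap. The test, whose spread also takes in fat, did not separate them (edgeR adjusted p = 0.413). Fat averaged 37.8 ± 35.3 CPM, with an SD nearly as large as the mean, and liver 7.20 ± 1.62. The 3 liver libraries and the AL fat library lay between 6.16 and 9.06 CPM and the DR and DR-AL fat libraries above them.

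Car3, a slow enzyme also linked to protection from oxidation, reached 23015, 21537 and 12200.2 CPM in AL, DR and DR-AL fat. Liver held 2228, 2765 and 513 CPM. The fat and liver means of 18917 ± 5864 and 1836 ± 1176 CPM (SD, n = 3) differed by 3.39 ± 0.74 (SE) log2 units (edgeR adjusted p = 0.00147). All colon and brain libraries were at or below 14.3 CPM. Car7, a cytosolic enzyme of neurons, was low in all tissues, with hippocampus highest at 12.4 ± 1.07 CPM, then fat at 5.86 ± 0.629 and hypothalamus at 2.82 ± 0.891. Hippocampus and fat differed by 1.08 ± 0.39 (SE) log2 units (edgeR adjusted p = 0.0271).

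The mitochondrial Car5a and the non-catalytic Car8 were liver genes. Car5a stood at 104, 131 and 48.2 CPM in AL, DR and DR-AL liver. In fat it was at 20.3 CPM in the AL library only, with 0.131 and 0.329 CPM in the other two, and all colon and brain libraries were at or below 0.801 CPM. The fat SD of 11.6 CPM exceeded the mean of 6.93, and fat did not differ from the other tissues (edgeR adjusted p = 0.219). Car8 averaged 91.0 ± 24.6 CPM in liver (SD, n = 3), against 21.4 ± 15.3 in colon and 14.9 ± 1.27 in hypothalamus. Colon and hypothalamus were not separated for Car8 (edgeR adjusted p = 0.681).

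Of the enzymes that face the outside of the cell, Car4 and Car9 were colon genes. Car4 was steady in colon at 2136, 2094 and 2386 CPM, and all 4 steps of its order from colon through fat, hippocampus and hypothalamus to liver differed, with edgeR adjusted p-values from 9.36e-07 to 0.0305. Its liver counts were 1, 6 and 10. Car9, best known as a target of hypoxia signalling, was at 76.1, 81.7 and 61.2 CPM in colon and at or below 1.89 CPM elsewhere. Its small excess in hypothalamus, 0.42 ± 0.16 (SE) log2 units over the mean of the other tissues (edgeR adjusted p = 0.0342), changed sign under other normalizations.

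Car12 was shared by hippocampus and colon, at 58.6 ± 5.97 and 44.4 ± 21.7 CPM (SD, n = 3), which were not separated (edgeR adjusted p = 0.467). Liver held 0, 0 and 1 counts, under the floor of 3 counts per library. Choroid plexus markers summed to 261, 169 and 280 CPM in AL, DR and DR-AL hippocampus, where Car12 was at 60.2, 52.0 and 63.7. Their part in the Car12 level was not tested. Car14 had the flattest profile. It was highest in liver at 43.3 ± 16.0 CPM and otherwise lay between 3.47 and 15.8 CPM in every library.

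The profile of each member but Car8 across the 15 libraries was set beside those of 16150 other genes with a mean of at least 1 CPM. The most alike genes by Pearson correlation of log2(CPM + 0.5) were Galnt4 for Car1 (r = 0.987), Elovl7 for Car2 (0.991), Mnd1 for Car3 (0.987), Klf6 for Car4 (0.991) and Dpys for Car5a (0.993). They were Homer3 for Car7 (0.977), Spdef for Car9 (0.993), Synpo for Car12 (0.978) and Qdpr for Car14 (0.971). These are descriptions over 15 points that share 5 tissues.

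Other genes of the family filled places that the 10 members left. Car5b, the second mitochondrial form, was at 382, 460.1 and 296 CPM in AL, DR and DR-AL fat and at or below 5.35 CPM elsewhere. Car10 and Car11, related proteins without catalytic activity, averaged 107 ± 6.62 and 69.2 ± 4.78 CPM in hypothalamus and 61.2 ± 2.31 and 89.7 ± 3.67 in hippocampus (SD, n = 3). Car13 was highest in colon at 44.3 ± 6.57 CPM. Car6, the secreted salivary form, was at most 0.183 CPM. The Car15 locus also carries the name of a neighbouring gene, Dgcr2, so its counts cannot be assigned to Car15.

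Diet comparisons within a tissue set 1 library against another. The study's Z test on square-rooted shares of counts was used, and a change was called when its adjusted p (Benjamini-Hochberg) was under 0.05 and its size at least 0.32 on the log2 scale, the minimum of the methods. Such a call compares 2 pooled libraries and has no check between mice, so no p is given. Changes are log2 fold changes of CPM (DR or DR-AL over AL unless stated) with exact 95% intervals that cover counting error only. On these terms 18 of 50 pairs of a member and a tissue changed under DR against AL, 7 up and 11 down. Against AL, DR-AL changed 24 pairs, 7 up and 17 down, and against DR it changed 18, 7 up and 11 down. Of all genes tested, 4.03% in hippocampus to 45.6% in fat were called for DR against AL. For DR-AL the range between the same tissues was 6.15 to 57.9% against AL and 4.88 to 51.6% against DR. The 2 comparisons with AL share the AL libraries. Of these 60 changes, 8 stayed called when the error between libraries was instead estimated without regard to diet. They were Car1 in hypothalamus (DR and DR-AL against AL), Car3 in hypothalamus (DR-AL against AL), Car8 in colon (DR and DR-AL against AL), Car12 in colon (DR against AL), and Car3 in liver and hippocampus (DR-AL against DR). All changes in fat, and those in liver against AL, were lost under that error. It counts the diet differences within a tissue as spread. As a coefficient of variation it was 0.758 in fat, 0.312 in liver, 0.164 in colon, 0.124 in hypothalamus and 0.0701 in hippocampus. A change was thus harder to keep in fat and liver than in the brain regions. Those kept in the brain regions rest on at most 82 counts in any library.

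**Figure D3:**
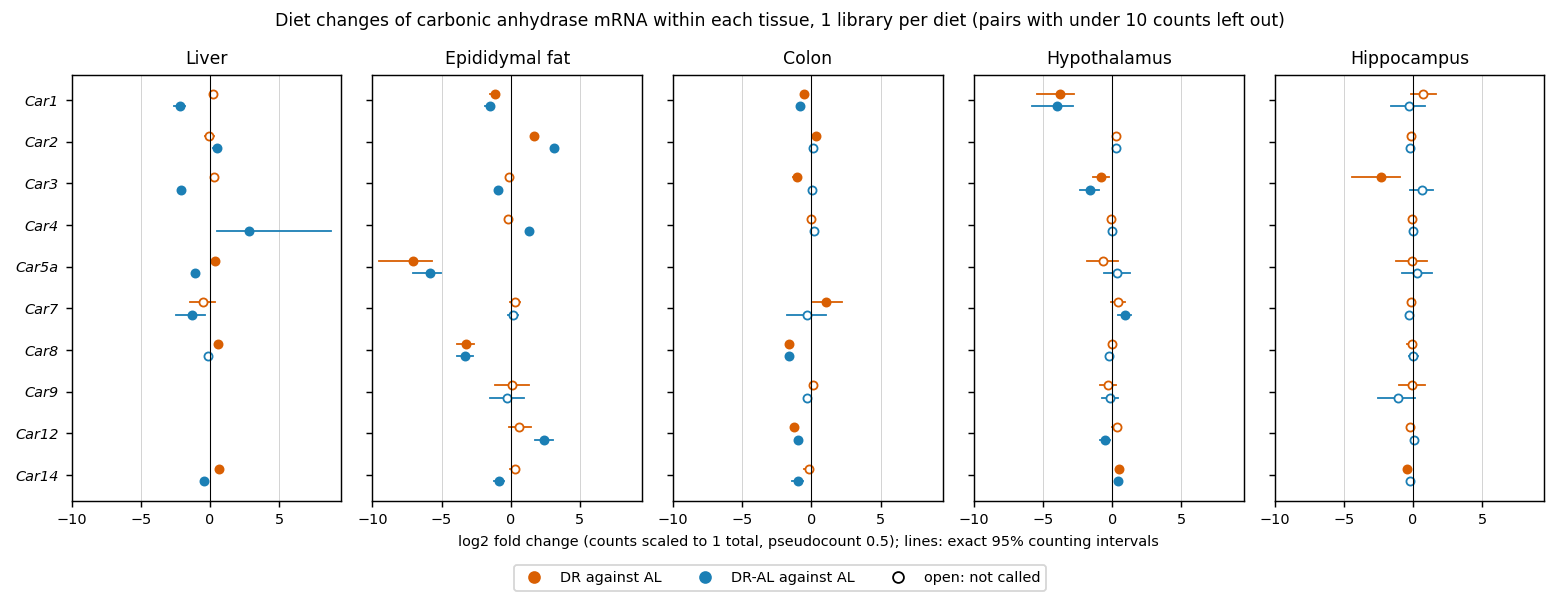
Log2 fold changes (x axis) of the 10 genes (rows) by tissue (panels), with DR and DR-AL each set against AL,, with exact 95% counting intervals as lines and filled symbols for called changes; pairs with under 10 counts are left out. The points farthest from 0 are Car5a in epididymal fat at -7.07 and -5.87, followed by Car1 in hypothalamus at -3.98 and -3.80, and every hippocampus symbol but 2 is open.

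In liver, 3 of the 10 members were called up in DR and 0 down. That count is near the 28.0% of all genes tested that were called, 18.0% up and 9.92% down. The median log2 fold change over all genes was 0.10. The 3 were Car5a at 0.33 (0.26 to 0.41), Car8 at 0.54 (0.46 to 0.63) and Car14 at 0.62 (0.50 to 0.74). On the FPKM scale Car5a, at 97.7 and 112 in AL and DR, and Car8, at 52.4 and 62.7, were under the fold required. Car3 was 0.31 higher (0.29 to 0.33), which is just under the fold required. The DR-AL library then had lower values than AL for 5 members and higher for 2, against 30.9% of all genes called, with 15.8% down and the remainder up. Car3, at 55115, 60184 and 12577 counts in AL, DR and DR-AL, fell by 2.12 on the log2 scale in DR-AL. Car1, at 288, 293 and 62 counts, fell by 2.19, and Car5a, at 2575, 2857 and 1181 counts, fell by 1.11. Car14 fell by 0.42 and Car7, at 31, 19 and 12 counts, by 1.32. Car2 rose by 0.50 (0.20 to 0.81), and Car4 rose from 1 to 10 counts, a ratio with an interval of 0.52 to 8.78 log2 units.

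From DR to DR-AL in liver, 6 members changed, against 40.8% of all genes (16.9% up, 24.0% down). Car3 fell by 2.43, Car1 by 2.40, Car5a by 1.44, Car14 by 1.04 and Car8 by 0.71, while Car2 rose by 0.56. Thus Car5a and Car14 stood above AL in the DR library and below AL in the DR-AL library. Perivenous hepatocyte markers summed to 19587, 16145 and 11627 CPM in AL, DR and DR-AL liver, of which Cyp2e1 made up 15737, 12189 and 8967. Of the 7 perivenous markers 5 were lower than AL in DR and 6 in DR-AL, while Cyp1a2 and Lect2 were higher in DR. Periportal markers summed to 9836, 9690 and 7848 CPM, with 3 of 7 lower in DR and 5 in DR-AL. Erythrocytes are rich in Car1, and erythrocyte markers summed to 219, 139 and 165 CPM, with 3 of 5 loci lower than AL in each. Alas2 went from 106 to 35.5 CPM in DR, while the alpha globin locus (Hba-a1) was at 80.2 and 80.4. The part of these cell types in the changes was not tested.

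In epididymal fat, 4 members changed under DR, 1 up and 3 down, where 45.6% of all genes were called, 35.2% up and 10.4% down. In DR-AL, 8 changed, 3 up and 5 down, against 57.9% of all genes, 46.0% up and 11.9% down. From DR to DR-AL, 5 changed, 3 up and 2 down, against 51.6%, 38.3% up and 13.3% down. The median log2 fold change over all genes tested was 0.23 in DR and 0.39 in DR-AL, so changes here are best read against those shifts. The scaling also weighs on the direction of calls in fat: 77.3% of called genes were up in DR against AL with totals as the scale, and 61.2% with DESeq size factors, and for DR-AL against AL the shares were 79.5% and 57.5%. In liver under DR they were 64.5% and 50.6%. With FPKM (pseudocount 0.1) the balance in fat turned, to 26.5% up in DR and 22.3% in DR-AL, and the medians over all genes to -0.38 and -1.01.

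Car2 counts in fat were 228, 631 and 2108 in AL, DR and DR-AL, which is 8.70, 27.6 and 77.1 CPM. Car2 rose by 1.67 (1.45 to 1.89) in DR and by 3.14 (2.95 to 3.35) in DR-AL. Car12, at 25, 34 and 137 counts, rose by 2.37 in DR-AL (1.77 to 3.07). On the FPKM scale both changes were smaller, with Car2 at 3.94, 7.69 and 10.5 and Car12 at 0.182, 0.171 and 0.31, and the Car12 call in DR-AL was lost with FPKM at a pseudocount of 1 (0.15). All 7 testis germ cell markers went up from AL through DR to DR-AL. Of 8 epididymis markers 4 did so, including Crisp1, which makes up most of the sum at 845.7, 2802 and 4584 CPM, and the other 4 were highest in DR. Their part in the Car2 and Car12 changes was not tested.

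Car3, the leading carbonic anhydrase of fat, had 603382, 491666 and 333767 counts. It was 0.10 lower in DR (-0.10 to -0.09), which was not called, and fell by 0.92 in DR-AL. It fell by 0.82 from DR to DR-AL. On the FPKM scale the decline was steeper, at 11807, 6732 and 2059, and with FPKM the DR difference of -0.81 was also called. Adipocyte markers in the same libraries summed to 41657, 35654 and 28376 CPM, with 3 of 10 lower than AL in DR and all 10 in DR-AL. Car4 had 3042, 2317 and 7804 counts and rose by 1.30 (1.24 to 1.36) in DR-AL. On the FPKM scale the same libraries gave 57.4, 29.1 and 45.0 for Car4, a difference of the opposite sign. The direction for Car4 in fat thus depends on the unit and on how it scales the libraries.

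Car5a, Car8 and Car1 were higher in the AL fat library than in the other two. The Car5a counts were 533, 3 and 9, a fall of 7.07 in DR (interval -9.56 to -5.72) and of 5.87 in DR-AL (-7.09 to -5.01). Car8 had 284, 26 and 30 counts and fell by 3.23 and 3.28. Car1 had 301, 116 and 110 counts and fell by 1.17 and 1.51. Erythrocyte markers in the same libraries summed to 355, 173 and 212 CPM, with 4 of 5 loci lower than AL in DR and 5 in DR-AL. The liver is the leading tissue of Car5a and Car8, and hepatocyte markers moved with them. Car5a in AL fat stood at 19.5% of its AL liver level and Car8 at 13.3%, beside the hepatocyte markers' median of 12.4% (7.98 to 55.2%). In DR fat Car5a was at 0.126% and Car8 at 1.40%, beside a marker median of 0.121%. Car14, also a liver gene, was at 15.7, 19.1 and 8.76% in AL, DR and DR-AL fat, and was called only in DR-AL, where it fell by 0.84. The part of liver RNA, of colon RNA and of erythrocytes in these changes was not tested.

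**Figure D4:**
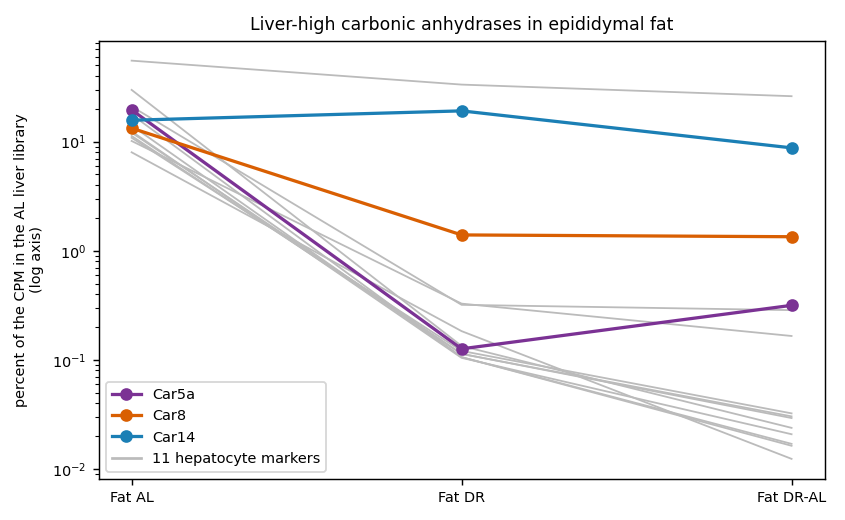
The level of Car5a, Car8 and Car14 in the 3 epididymal fat libraries (x axis), as a percent of the CPM in AL liver on a log axis (y), with 11 hepatocyte markers in grey. Car5a drops from 19.5% to 0.126% and Car8 from 13.3% to 1.40% between AL and DR fat, while Car14 stays between 8.76 and 19.1%; 1 marker line starts at 55.2% and stays high.

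Without the fat libraries the counts of changed pairs were 14 for DR against AL, 16 for DR-AL against AL and 13 for DR-AL against DR, of 40 pairs each. In the remaining tissues 4.03 to 28.0%, 6.15 to 30.9% and 4.88 to 40.8% of all genes were called in these comparisons.

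In colon, 6 members changed under DR, 2 up and 4 down, against 19.7% of all genes, 9.04% up and 10.6% down. Car1 had 163572, 140459 and 88532 counts in AL, DR and DR-AL and fell by 0.55 (-0.56 to -0.54) in DR and by 0.80 (-0.81 to -0.79) in DR-AL. Car12, at 1835, 954 and 889 counts, fell by 1.28 and 0.96. Car8, at 1038, 420 and 314 counts, fell by 1.64 in both. These 3 members were lower than AL in both libraries, and none of them was called between DR-AL and DR, where the differences were -0.25, 0.31 and -0.00.

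Car2 rose by 0.34 (0.32 to 0.36) in DR, at 31577, 50235 and 32014 counts, and was 0.10 above AL in DR-AL (0.08 to 0.13). Car3 fell by 1.06 in DR, at 377, 228 and 359 counts, and rose by 1.07 from DR to DR-AL. These counts are 14.2, 6.82 and 14.3 CPM, beside 23015 in AL fat. Adipocyte markers in AL, DR and DR-AL colon were at medians of 0.0634, 0.0223 and 0.0857% of their AL fat level. Of 10 adipocyte markers 10 were lower than AL in DR and 3 in DR-AL. The part of fat RNA in the Car3 changes was not tested. Car4 was within -0.03 of AL in DR and 0.16 in DR-AL, neither called. Car9 had 2021, 2730 and 1532 counts, not called against AL, and fell by 0.42 from DR to DR-AL. Car14 fell by 0.99 in DR-AL, at 190, 206 and 90 counts. Car7 had 12, 32 and 9 counts, and its call under DR was lost with an exact binomial test. In DR-AL, 4 members fell and 0 rose, against 14.3% of all genes, 5.83% up and 8.50% down. From DR to DR-AL 1 rose and 3 fell, against 14.5%, 6.78% up and 7.67% down. Colonocyte markers summed to 23786, 24439 and 24604 CPM and goblet cell markers to 12868, 15086 and 16545 CPM in AL, DR and DR-AL colon. Of the colonocyte markers 4 of 10 were lower than AL in each, and of the goblet cell markers 0 of 6.

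In hypothalamus, 3 members changed under DR, 1 up and 2 down, against 7.05% of all genes, 4.33% up and 2.72% down. In DR-AL 2 rose and 3 fell, against 15.1%, 6.06% up and 9.02% down. From DR to DR-AL 1 rose and 1 fell, against 9.62%, 2.82% up and 6.80% down. Car1 had 82, 6 and 5 counts and fell by 3.80 (-5.40 to -2.73) in DR and by 3.98 (-5.77 to -2.83) in DR-AL. Erythrocyte markers in the same libraries summed to 82.4, 42.5 and 27.02 CPM. Colonocyte markers, at a median of 0.0898% of their AL colon level in AL hypothalamus, were at 0.0208% in DR and 0.0202% in DR-AL. Car1 itself was at 0.0449, 0.00297 and 0.00260% of its AL colon level, and the part of either cell type was not tested. Car3, at 70, 44 and 24 counts, fell by 0.80 and 1.60. These counts are 2.36, 1.34 and 0.769 CPM, beside 23015 in AL fat. Adipocyte markers were at medians of 0.00282, 0.00494 and 0.00248% of their AL fat level. Of 10 adipocyte markers 7 were lower than AL in DR and 6 in DR-AL. The part of fat RNA was not tested. Car14, at 333, 516 and 460 counts, rose by 0.49 (0.29 to 0.69) and 0.39 (0.19 to 0.60). Car7 rose by 0.90 in DR-AL, at 60, 87 and 118 counts, and Car12 fell by 0.52, at 145, 199 and 106. Of 7 telencephalic excitatory neuron markers 1 was lower than AL in DR and 1 in DR-AL. Of 8 hypothalamus markers 5 were lower in DR and 6 in DR-AL. The part of the cells taken with the hypothalamus in the Car7 change was not tested. Car2 was 0.24 higher in DR (0.17 to 0.31) and 0.30 in DR-AL (0.23 to 0.36), under the fold required, and oligodendrocyte markers summed to 3909, 4335 and 5859 CPM.

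Hippocampus had the fewest calls. Under DR, 2 members fell and 0 rose, against 4.03% of all genes, 1.36% up and 2.67% down. Car14, at 628, 356 and 329 counts, fell by 0.44 (-0.64 to -0.25), and Car3 went from 28 to 4 counts, a fall of 2.30 with an interval of -4.40 to -0.92. In DR-AL 0 members changed, where 6.15% of all genes did, 3.99% up and 2.16% down. From DR to DR-AL only Car3 did, rising from 4 to 27 counts, against 4.88% of all genes, 3.63% up and 1.26% down. Car2 was within 0.18 of AL in both, and Car4 within 0.04. Car3 was at 0.691, 0.128 and 1.07 CPM in AL, DR and DR-AL hippocampus. Adipocyte markers there were at medians of 0.00820, 0.00615 and 0.00660% of their AL fat level. Of 10 adipocyte markers 8 were lower than AL in DR and 6 in DR-AL. Hepatocyte markers were lower than AL at 11 of 12 loci in each. The part of fat and liver RNA in the Car3 changes was not tested.

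The diet effect shared by the 5 tissues was tested with the tissues standing in as replicates. The tissues of a diet group came from the same mice. The SE and p of this test therefore measure spread between tissues and libraries, not between mice. In edgeR's quasi-likelihood test 0 of 10 members passed an adjusted p under 0.05 for DR and 0 for DR-AL, where 0.00572% of all genes tested passed in each. DESeq2 also called 0. At an unadjusted p under 0.05 there were 0 members for DR and 2 for DR-AL, beside 638 and 841 of 17476 genes. The 2 were Car1, at -1.77 ± 0.58 (SE) log2 units, and Car8, at -1.13 ± 0.50, both with an edgeR adjusted p of 0.83. Car1 was lower than AL in all 5 tissues of the DR-AL group, and was called in 4 of them.

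Genes that work with carbonic anhydrases were taken from 4 lists. Of the bicarbonate transporters measured in liver, 6 of 14 rose and 1 fell in DR, where 18.0% of all genes rose and 9.92% fell, with a median log2 fold change of 1.44 beside 0.10 over all genes. The 6 that rose each had a mean under 100 counts, and calls on few counts are somewhat too many. Of the called transporters in liver, only the 1 that fell, Slc4a4, had a mean of at least 100 counts. Slc4a4, the sodium bicarbonate cotransporter, fell by 0.98 in DR and rose by 0.95 in DR-AL, at 2448, 1095 and 4689 counts. In fat 7 of 15 rose and 1 fell, beside 35.2% and 10.4% of all genes, among them the chloride and bicarbonate channel Cftr, at 22, 103 and 245 counts. In colon 2 of 14 rose and 2 fell, beside 9.04% and 10.6% of all genes. The chloride-bicarbonate exchanger Slc26a3 rose by 0.40 in DR, at 55720, 92347 and 60705 counts, and Cftr by 0.39.

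Proton and lactate exporters in DR had 2 of 12 up and 1 down in liver, 4 of 13 up and 1 down in fat, and 2 of 13 up and 2 down in colon, where the shares of all genes up were 18.0%, 35.2% and 9.04%. In liver and fat the counts up are near those shares. The colonic proton pump Atp12a rose by 0.67 in DR and by 1.89 in DR-AL, at 12960, 25929 and 45278 counts. The lactate carrier Slc16a1 fell by 0.61 in DR liver and rose by 1.03 in DR-AL liver. Of 7 enzymes that use bicarbonate, Acaca, which carboxylates acetyl-CoA for fatty acid synthesis, rose by 1.32 in DR liver and by 2.81 in DR fat, and fell by 0.59 and 1.42 in the DR-AL libraries. In DR, 2 of the 7 rose and 2 fell in liver, 2 rose and 1 fell in fat, and 1 rose and 1 fell in colon, counts too small to be read against the shares of all genes just given. The urea cycle enzyme Cps1, also a hepatocyte marker, had 27547, 108 and 23 counts in AL, DR and DR-AL fat.

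Car9 and Car12 are known hypoxia targets, so 9 other such targets were set beside them. In DR, 6 of 9 rose and 1 fell in liver, 5 rose and 2 fell in fat, and 1 rose and 2 fell in colon, beside 18.0%, 35.2% and 9.04% of all genes up. Vegfa, the vessel growth factor, rose by 1.10 in DR liver and fell by 0.45 in DR-AL liver. In colon, where Car9 and Car12 were measurable, Ndrg1 fell by 0.70 and P4ha1 rose by 0.54 in DR, while Car12 fell by 1.28 and Car9 was 0.10 higher (0.02 to 0.19) and not called.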

How the data were processed

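RNA of 5 mice was pooled per tissue and diet, depleted of ribosomal RNA and sequenced in stranded, paired-end libraries, 1 per tissue and diet (15 in all). According to the study's methods, the authors trimmed, aligned and counted reads with the Strand software on mm10 and removed duplicates, while the submitters' processing notes name mm9 and DESeq2. Locus positions in the table are therefore not printed. The authors deposited raw read counts and FPKM per locus. Of 33603 loci, 23589 carried a gene name. Unnamed loci (0.258 to 1.39% of counts) were left out, and their totals with them.

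Members and gene lists were chosen with earlier results of these data known. CPM and library sizes used totals of named loci. Tissues were compared with edgeR 4.0.16 (quasi-likelihood, filterByExpr, no TMM factors, terms for tissue and diet, 15 libraries), with adjustment over all 17476 genes tested. Replicates were the 3 diets of a tissue, and the mice behind them were pooled. Diets within a tissue were compared with the Z test of the methods on genes with at least 1 count, with fold changes at a pseudocount of 0.5 on counts scaled to a common total. Intervals are exact Clopper-Pearson at 95% and, like the floor of 3 counts, cover counting error only. Both tests were tested on simulated data. On counts simulated with counting error only, the Z test made more false calls than its threshold allows among genes with few counts and kept to the threshold above that. Calls on few counts, and the shares of all genes called, are therefore somewhat too many by counting error alone. The simulation held no other error between libraries, so it cannot say how many calls on many counts are false. The test was kept as set, and an exact conditional binomial test was added as an alternative after seeing this.

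Genes named beside the members are, per pathway list and per liver, fat and colon, up to 2 called under DR with the largest change and a mean of at least 100 counts, and up to 2 of the most alike genes per member. Of 185 genes in all lists, 2 were not found, and for 13 at several loci the locus with most counts was used. Alternatives were TMM, DESeq2 1.42.0 and its size factors, other filters, folds and error models, FPKM with pseudocounts of 0.1 and 1, and leaving out libraries. Promoter sequences are from RefSeq. The gene most like Car8 is not reported here.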

Additional observations from a re-analysis of the deposited data

Results flagged for a closer look

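Over the 3 diet comparisons there were 9 cases in which a member rose in 1 tissue and fell in another under the same comparison of libraries. The difference between the tissues was not tested, since each tissue and diet has 1 library. No share of all genes with such opposite calls is given, so the 9 cases are no result about the family. Some rest on few counts, such as Car3 in hippocampus, from 4 to 27, and Car7 in colon, from 32 to 9. The rise of Car5a in liver lies close to the fold required. Under DR against AL, Car5a rose by 0.33 in liver and changed by -7.07 in fat, Car8 rose by 0.54 in liver and changed by -3.23 in fat, and Car14 rose by 0.62 in liver and changed by -0.44 in hippocampus. Under DR-AL against AL, Car7 rose by 0.90 in hypothalamus and changed by -1.32 in liver, Car12 rose by 2.37 in fat and changed by -0.96 in colon, and Car14 rose by 0.39 in hypothalamus and changed by -0.99 in colon. From DR to DR-AL, Car3 rose by 2.92 in hippocampus and changed by -2.43 in liver, Car7 rose by 0.51 in hypothalamus and changed by -1.37 in colon, and Car12 rose by 1.74 in fat and changed by -0.84 in hypothalamus. Where a member rose or fell in several tissues, the tissue with the widest change is given. The fat values of Car5a and Car8 stand beside hepatocyte markers, and that of Car12 beside epididymis and testis markers, in the report.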

How the results depend on the processing

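The counts of changed pairs for DR against AL, DR-AL against AL and DR-AL against DR (18, 24 and 18) depend most on the error assumed between pooled libraries. With an assumed biological coefficient of variation of 0.1 they were 9, 17 and 12, and with one estimated without regard to diet 3, 3 and 2. With a fold of at least 2 they were 10, 14 and 11. With FPKM and a pseudocount of 0.1 they were 24, 30 and 31. An exact conditional binomial test, added after seeing the data, gave 17, 24 and 17 and dropped Car7 in colon under DR and in hypothalamus from DR to DR-AL. Counts without fat and hypothalamus, also added after seeing the data, were 11, 11 and 11. Of 60 changes called, 8 kept their call and direction under every alternative run, namely those named in the report as kept with the estimated error. Car4 in fat, DR-AL against AL, turned to -0.35 and -0.34 with FPKM at pseudocounts of 0.1 and 1. Car9 in hypothalamus against the other tissues turned to -0.084 with TMM and -0.066 with DESeq2, and the cause was not tested. The 36 pairs that differed by tissue were 34 to 38 without any 1 library and 35 to 39 under the other alternatives, and 32 of the 36 kept their call throughout. The 24 neighbouring pairs were 21 to 26 without any 1 library. The shared diet effects stayed at 0 members under all alternatives run. No paired analysis was possible because each tissue and diet has 1 library and the labels give no shared replicate numbers to use as a block. The tissue comparisons do carry a term for the diet group, whose tissues came from the same mice, and without it 37 pairs differed.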
